A study of Mus musculus with 6 samples.

Results

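The transcripts of 10 genes of the circadian clock were examined in white adipose tissues (WATs) with and without Ntsr2 in adipocytes. They are Arntl, Clock, Npas2, Per1, Per2, Per3, Cry1, Nr1d1, Nr1d2 and Dbp, taken by symbol from a table of 21456 genes, and all 10 were found and tested. The rule of the choice used no measured value, but it was set with earlier results of these data known. The question was how the clock genes stood in each mouse and whether they differed between the genotypes, since clock transcripts move with the time at which a tissue is taken. The time of collection, age and sex of these mice are not given in the sources used here.

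RNA of WATs was sequenced from 6 mice. The 3 controls were Ntsr2 flox/flox, and the 3 Ntsr2 AKO mice were Ntsr2 flox/flox with Adipoq-cre, all fed a chow diet and housed under a light-dark cycle. Both groups carry the floxed alleles, and only the Ntsr2 AKO mice carry Cre. The Adipoq promoter drives Cre in adipocytes of all fat depots, so Ntsr2, a receptor for neurotensin, is removed from white and brown adipocytes and kept in other cells. The depot is not named for these samples. The mice carry the numbers 3, 4 and 5 in each group and are treated as separate animals. Each p value sets the difference between the groups against the spread between mice, which limma estimates partly from the other genes.

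The clock is a feedback loop of transcription. ARNTL (BMAL1) pairs with CLOCK or NPAS2, binds E-box elements and activates the Per and Cry genes, whose proteins return to block it, while NR1D1 and NR1D2 (REV-ERBα and REV-ERBβ) repress Arntl through RORE elements. DBP is an output activator that binds D-box elements. In adipose tissue of mice kept in light and dark, Dbp, Nr1d1 and Per3 are known to peak in the light phase and Arntl and Npas2 at the opposite time, and many genes of fat metabolism cycle with them.

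The loop can be read in the promoters of some of these genes. RefSeq promoter windows on GRCm38.p6, which run from 250 bases before to 50 bases after the start of transcription, matched 9 of the 10 genes, and Per2 had none. Arntl, Clock and Per1 have windows for more than 1 start. Words were searched on both strands, and positions are counted from 1 at the start, with -1 for the base before it. The E-box CACGTG, the word bound by ARNTL with its partner, was found at -166 in Per1 and at -60 in Cry1, and 7.15% of the 32851 windows of all genes hold it. The D-box words TTATGTAA and TTACGTAA, bound by DBP, occur in 1.06% of all windows and were found at -205 and -158 in Per3. The RORE core words TAGGTCA and TGGGTCA, bound by the REV-ERB proteins, occur in 6.45% of windows and were found at 31 in Arntl. The CRE TGACGTCA, the word of cAMP-responsive factors, held by 1.79% of windows, was not found in any window of the 9 genes. Sequence farther from the start was not searched, so this does not say that a gene such as Per1 lacks the word. The hits do not overlap each other. None of them was found in the windows of Clock, Npas2, Nr1d1, Nr1d2 or Dbp, which says only that these letters are not in these windows. The stretches around the words are printed from 5′ to 3′ on the strand of the gene with each word in capitals, so that the loop elements can be seen. That of Per1 belongs to a start inside the gene, and that of Arntl lies within the transcript. The 80 bases before the start of Nr1d1 are added because the largest difference between the groups was measured for that gene.
Per1 (chr11:69098759-69098812, + strand): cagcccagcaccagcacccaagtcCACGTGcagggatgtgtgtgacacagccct
Cry1 (chr10:85185085-85185138, - strand): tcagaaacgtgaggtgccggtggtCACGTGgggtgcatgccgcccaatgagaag
Per3 (chr4:151044792-151044894, - strand): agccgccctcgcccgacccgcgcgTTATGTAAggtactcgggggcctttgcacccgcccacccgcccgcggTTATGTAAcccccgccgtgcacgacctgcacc
Arntl (chr7:113207530-113207559, + strand): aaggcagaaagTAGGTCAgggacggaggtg
Nr1d1 (chr11:98775378-98775457, - strand): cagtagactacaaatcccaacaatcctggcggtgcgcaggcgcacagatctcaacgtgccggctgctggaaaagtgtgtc

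The samples as a whole were described first. The recovered totals were 60405373 to 66098226 reads in control mice and 54085088 to 56268725 in Ntsr2 AKO mice, so every control library was deeper. Normalized counts are reads divided by a size factor for each mouse. Ntsr2, the targeted gene, had 83.8, 64.0 and 152.5 normalized counts in control mice and 3.10, 8.29 and 0 in Ntsr2 AKO mice. The 8 adipocyte markers made up 2.25% to 3.38% of all normalized counts in control mice and 3.28% to 3.84% in Ntsr2 AKO mice, as the tissue label says. The 12 skeletal muscle markers made up 4.76% in control 5, 0.176% in Ntsr2 AKO 4 and 0.383% in Ntsr2 AKO 5, and at most 0.00298% in the other 3 mice. The 5 macrophage markers made up 0.0383% to 0.109% in control and 0.0410% to 0.0957% in Ntsr2 AKO mice, the 4 endothelial markers 0.0234% to 0.0419% and 0.0256% to 0.0368%, and the 4 adipose progenitor markers 0.124% to 0.195% and 0.144% to 0.343%. In such bulk samples, fewer cells of a type and less RNA per cell cannot be told apart.

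All 10 clock genes had at least 107 normalized counts in every mouse, and Nr1d1 was the most abundant of them per length. On the scale of normalized counts per kilobase of exon, the medians of the 6 mice were 1245 for Nr1d1, 677 for Per1, 493 for Clock, 484 for Arntl, 383 for Nr1d2, 344 for Cry1, 247 for Per2, 216 for Npas2, 150 for Per3 and 88.0 for Dbp. Only Nr1d1 stood clear of its neighbour in this order, with a lowest mouse at 949 against 831 in the highest mouse for Per1. Every other pair of neighbours overlapped in the ranges of the 6 mice. Dbp, the output factor, ranged from 58.4 to 117 per kilobase and was the lowest of the 10 genes in the median. Its exons share 29.3% of their bases with Sphk2 on the opposite strand, so its level per length is uncertain.

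**Figure D1:**
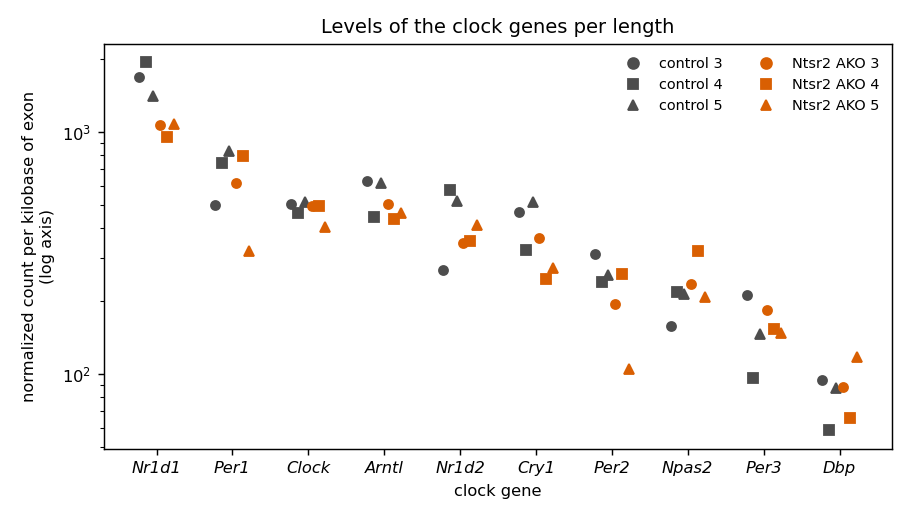
Normalized counts per kilobase of exon (log axis) of the 10 clock genes in each of the 3 control mice (grey) and 3 Ntsr2 AKO mice (orange), ordered by the median of the 6 mice. Nr1d1 lies highest with a median of 1245 and Dbp lowest with 88.0, and the neighbours from Per1 to Dbp overlap. The level of Dbp is uncertain, since its exons share bases with Sphk2.

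The positive limb of the loop is formed by Arntl (chr7:113207465-113314126 on GRCm38), Clock (chr5:76209868-76304792) and Npas2 (chr1:39193731-39363236). Arntl had 1946, 1369 and 1893 normalized counts in controls 3, 4 and 5 and 1562, 1351 and 1431 in Ntsr2 AKO mice 3, 4 and 5. Controls 3 and 5 stood above all other mice and control 4 lay within the Ntsr2 AKO range, so the groups overlapped. The difference of the means, in log2(normalized count + 1), was -0.25 (standard error 0.17, limma adjusted p = 0.708 over 16157 genes). It was -0.41 without control 4, -0.16 without control 3 and -0.25 with a score of the skeletal muscle markers as a covariate. Without the 3 mice with skeletal muscle transcripts it was -0.06, an omission chosen after the data were seen that leaves 1 Ntsr2 AKO mouse. Clock, the partner of ARNTL, was the steadiest of the 10 genes. Its normalized counts were 4988, 4593 and 5101 in control mice and 4886, 4893 and 4023 in Ntsr2 AKO mice, a factor of 1.27 from the lowest to the highest mouse. The groups overlapped, with a log2 difference of -0.09 (standard error 0.12, limma adjusted p = 0.845), and the difference came out at 0.01 after quantile normalization. Npas2, a paralogue of Clock, had 668, 923 and 904 normalized counts in control mice and 994, 1360 and 878 in Ntsr2 AKO mice. Its highest mouse was Ntsr2 AKO 4 and its lowest control 3, in which Arntl was highest. Its log2 difference was 0.36 (standard error 0.22, limma adjusted p = 0.680), and the groups overlapped through Ntsr2 AKO 5. It was 0.18 without Ntsr2 AKO 4 and 0.21 without control 3.

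The Per genes, whose products form the repressor complex with the CRY proteins, differed widely between mice. Per1 (chr11:69095217-69109960) had 2813, 4171 and 4672 normalized counts in control mice and 3449, 4463 and 1808 in Ntsr2 AKO mice. Ntsr2 AKO 5 was far below the other 5 mice, and without it the log2 difference between the groups went from -0.33 (standard error 0.35, limma adjusted p = 0.811) to 0.05. Per2 (chr1:91415982-91459324) had 1828, 1394 and 1493 normalized counts in control mice and 1137, 1514 and 608 in Ntsr2 AKO mice. Ntsr2 AKO 5 was again the lowest, at 3.01 times less than the highest mouse, while Ntsr2 AKO 4 lay within the control range. The log2 difference of Per2 was -0.62 (standard error 0.33, limma adjusted p = 0.643). It was -0.25 without Ntsr2 AKO 5 and -0.91 without Ntsr2 AKO 4, the ends of its range over all alternatives. Per3 (chr4:151003652-151044665), the member with D-box words in its promoter window, had 1277, 575 and 880 normalized counts in control mice and 1107, 919 and 881 in Ntsr2 AKO mice. Here controls 3 and 4 were the highest and the lowest of the 6 mice, and all Ntsr2 AKO mice lay between them. The log2 difference of Per3 was 0.16 (standard error 0.29, limma adjusted p = 0.897), and -0.14 without control 4.

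Per1 and Per2 are also known to respond directly to glucocorticoids and to activity-dependent signals, so lists of such targets were measured in the same mice. The lowest of the 6 mice was Ntsr2 AKO 5 for 9 of 10 glucocorticoid targets (90.0%), against 23.0% of the 12566 genes with a mean of at least 100 normalized counts. For the 12 immediate early genes the lowest mouse was Ntsr2 AKO 4 for 8 and Ntsr2 AKO 5 for 2, against 16.5% and 23.0% of those 12566 genes. The part of these in the Per1 and Per2 levels was not tested.

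Cry1 (chr10:85131700-85185064) encodes the partner of the PER proteins in the repressor complex. It had 1413, 979 and 1549 normalized counts in control mice and 1105, 744 and 831 in Ntsr2 AKO mice. Controls 3 and 5 were the highest, as for Arntl, and Ntsr2 AKO 4 and 5 the lowest, with control 4 between Ntsr2 AKO 3 and 5. The log2 difference was -0.55 (standard error 0.23, unadjusted p = 0.0502, adjusted p = 0.594 in limma). With a score of the skeletal muscle markers as a covariate it was -0.55, and with each mouse left out it ranged from -0.75 to -0.42. Without the 3 mice that held skeletal muscle transcripts, which leaves 1 Ntsr2 AKO mouse, it was -0.09.

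Nr1d1 (chr11:98767932-98775333), which encodes the repressor REV-ERBα, was lower in every Ntsr2 AKO mouse than in every control mouse. It had 4577, 5272 and 3843 normalized counts in controls 3, 4 and 5 and 2905, 2583 and 2930 in Ntsr2 AKO mice 3, 4 and 5. The means were 4564 ± 715 (SD, n = 3) and 2806 ± 193 (SD, n = 3), a log2 difference of -0.69 (standard error 0.15). Its unadjusted p in limma was 0.00221, rank 65 of the 16157 genes, and the adjusted p was 0.499. The call depended on the tool, with an adjusted p of 0.569 in edgeR's quasi-likelihood test and 0.0111 in DESeq2 on the recovered reads, and a range of 0.0111 to 1 over all alternatives. The log2 difference lay between -0.81 and -0.58 in all alternatives, and it was -0.67 with the skeletal muscle score as a covariate and -0.76 without the 3 mice with muscle transcripts. The depth of the libraries was also lower in every Ntsr2 AKO mouse, and its part in the values was not tested. Exons of Nr1d1 share 263 bases (9.67%) with exons of Thra, a thyroid hormone receptor gene on the opposite strand. The library kit does not mark the strand, so reads of the shared bases cannot be told apart. Thra itself had a log2 difference of 0.00 (limma adjusted p = 0.998), with overlapping groups.

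Nr1d2 (chr14:18204054-18239127), the paralogue that encodes REV-ERBβ, overlapped between the groups. It had 1251, 2686 and 2427 normalized counts in control mice and 1617, 1644 and 1930 in Ntsr2 AKO mice. All Ntsr2 AKO mice lay between control 3, the lowest, and controls 5 and 4, and control 3 had the second highest Nr1d1 level of all mice. The log2 difference was -0.22 (standard error 0.29, limma adjusted p = 0.843), and single control mice decided its size, at -0.57 without control 3, -0.01 without control 4 and -0.09 without control 5. Whether Nr1d1 and Nr1d2 differed in their change was not tested.

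Dbp (chr7:45705088-45710203) had 174, 107 and 161 normalized counts in control mice and 162, 121 and 216 in Ntsr2 AKO mice. Control 4 and Ntsr2 AKO 4 were low and Ntsr2 AKO 5 was highest, so the groups overlapped. The log2 difference was 0.16 (standard error 0.32, limma adjusted p = 0.904), and it was -0.05 without control 4 and -0.04 without Ntsr2 AKO 5. Exons of Dbp share 539 bases (29.3%) with exons of Sphk2 on the opposite strand, whose reads cannot be told apart there. Sphk2, a sphingosine kinase gene, had a log2 difference of -0.01 (limma adjusted p = 0.991). As Sphk2 ranged from 1111 to 1397 normalized counts and Dbp from 107 to 216, the share of the Dbp reads that stems from Dbp itself is unknown.

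**Figure D2:**
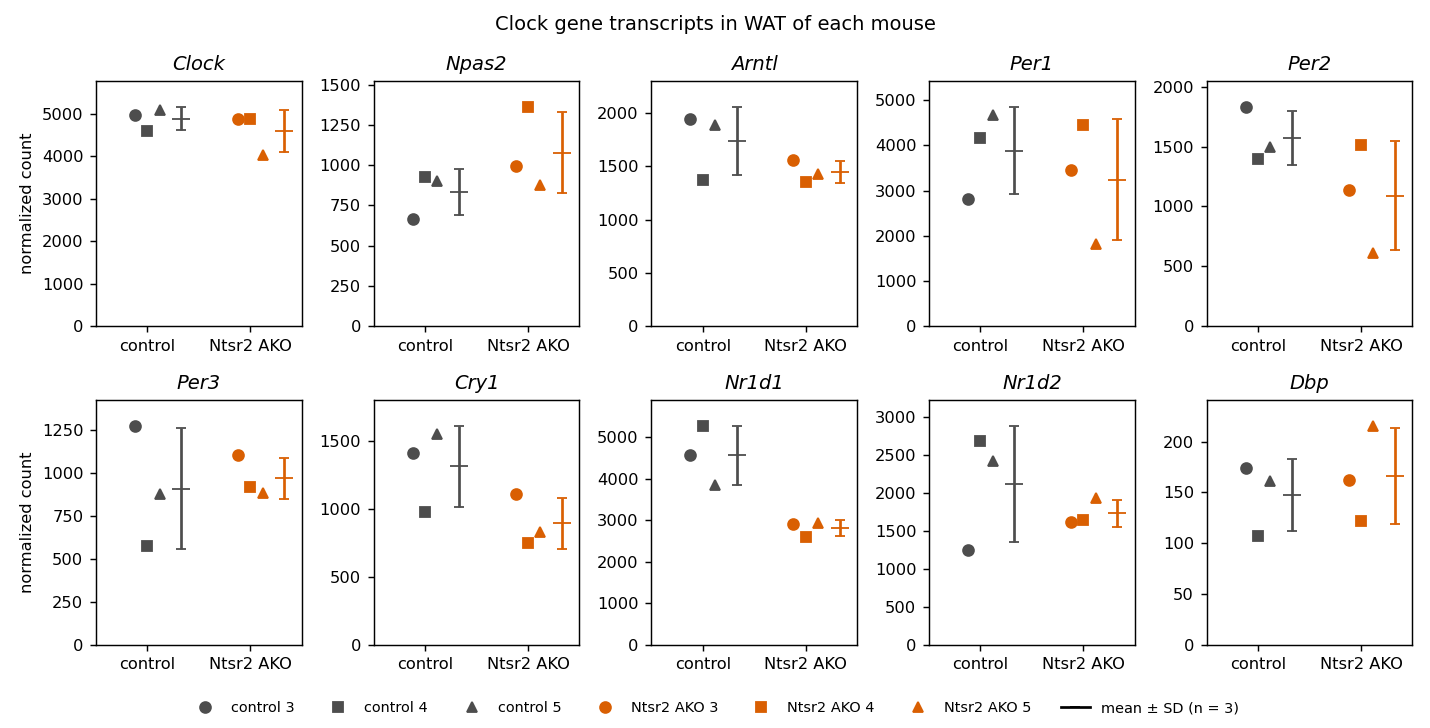
Normalized counts of each clock gene in the 3 control mice (grey) and 3 Ntsr2 AKO mice (orange), with the mean ± SD of each group beside the points and a symbol for each mouse number. Nr1d1 is the only gene whose groups do not overlap, from 3843 to 5272 in control and from 2583 to 2930 in Ntsr2 AKO mice, and Per1 and Per2 are lowest in Ntsr2 AKO 5.

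Of the 10 genes, 0 passed an adjusted p of 0.05 in limma, where 0.00619% of all genes tested did, and 0 passed in edgeR, where 0 of all genes did and 1323 of all genes had an unadjusted p under 0.05. In DESeq2 1 passed, Nr1d1, against 1.36% of all genes. An unadjusted p under 0.05 in limma was reached by 1 of the 10 genes, against 8.35% of all genes. The groups did not overlap for 1 gene that was lower in Ntsr2 AKO mice, where 8.16% of all genes were lower in this way, and for 0 genes that were higher, where 6.82% were. A count of 1 in 10 is near these shares, so it is no result about the clock genes as a list. Of the log2 differences 7 were below 0 and 3 above, with a median of -0.23 against -0.01 over all genes tested. After quantile normalization the medians were -0.16 and 0.05.

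**Figure D3:**
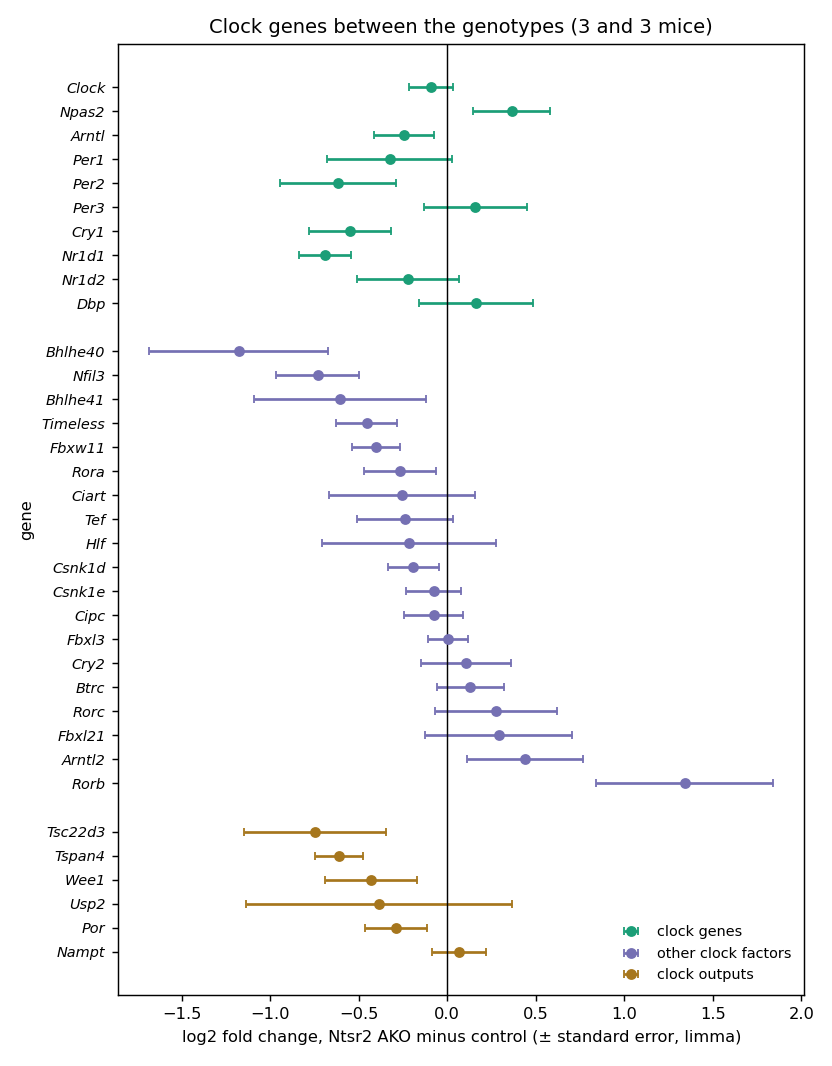
Difference between Ntsr2 AKO and control mice in log2(normalized count + 1) with its standard error from limma (3 and 3 mice) for the 10 clock genes (green), 19 other clock factors (purple) and 6 clock outputs (brown). Nr1d1 lies farthest from 0 among the clock genes, at -0.69, and 0 of the genes shown passed the adjusted p of 0.05 in limma.

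Mice of the same genotype differed more in 7 of the 10 clock genes than in the median gene. The median SD within groups was 0.36 on the log2 scale for the 10 genes and 0.24 for the 12566 genes with a mean of at least 100 normalized counts. The highest mouse was a median 2.06 times the lowest for the clock genes and 1.60 times for those genes. Per1, with an SD of 0.55, lay above 86.6% of those genes, and Per2, with 0.50, above 83.7%. Clock, with 0.13, lay above 16.7%, and Nr1d1, with 0.18, above 32.7%.

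The members did not rank the mice alike. The highest mouse was control 3 for Arntl, Per2 and Per3, control 4 for Nr1d1 and Nr1d2, control 5 for Clock, Per1 and Cry1, Ntsr2 AKO 4 for Npas2 and Ntsr2 AKO 5 for Dbp. Control 3 was lowest for Npas2 and Nr1d2, control 4 for Per3 and Dbp, Ntsr2 AKO 4 for Arntl, Cry1 and Nr1d1, and Ntsr2 AKO 5 for Clock, Per1 and Per2. Ntsr2 AKO 3 was neither the highest nor the lowest for any of the 10 genes. It was the lowest mouse for 8.09% and the highest for 8.73% of the genes with a mean of at least 100 normalized counts.

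**Figure D4:**
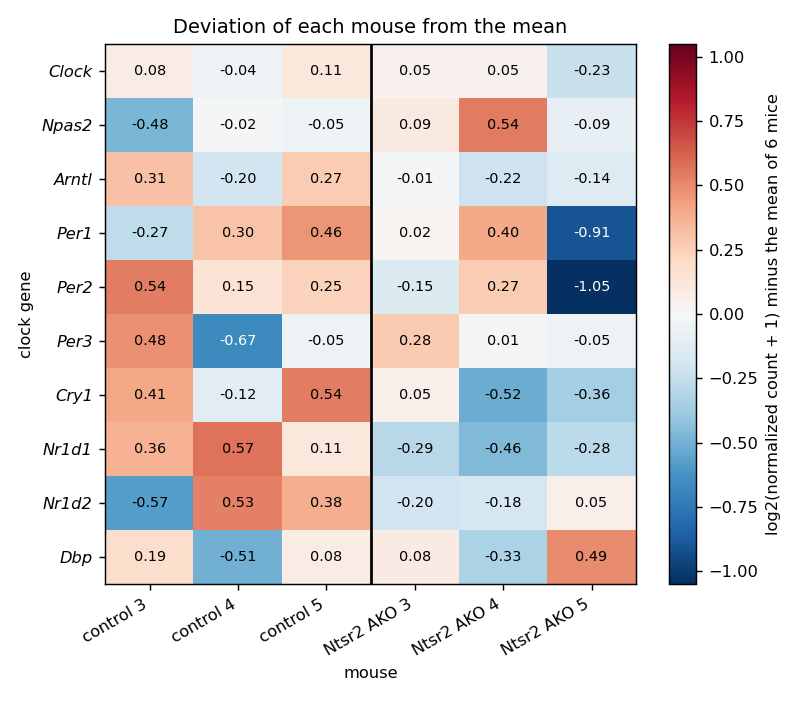
Deviation of each mouse from the mean of the 6 mice in log2(normalized count + 1) for each clock gene, with red above and blue below the mean and the value in each cell. The lowest cells are Per2 and Per1 in Ntsr2 AKO 5, at -1.05 and -0.91, and the row of Nr1d1 is red in all control and blue in all Ntsr2 AKO mice.

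Ratios of clock genes were taken within each mouse, since the ratio of genes that peak at opposite times follows the time of day more than either gene does. This reason holds for the pairs with opposite peaks named above, and it is not claimed for Per2 to Cry1. The log2 ratio of Dbp to Arntl was -3.48, -3.66 and -3.55 in control mice and -3.26, -3.47 and -2.73 in Ntsr2 AKO mice. The groups did not overlap, though Ntsr2 AKO 4 and control 3 were nearly equal, and the means were -3.56 ± 0.09 and -3.15 ± 0.38 (SD, n = 3). The log2 ratio of Nr1d1 to Arntl gave the opposite order of the groups. It was 1.23, 1.94 and 1.02 in control mice and 0.89, 0.94 and 1.03 in Ntsr2 AKO mice, with overlap through control 5 and Ntsr2 AKO 5. The difference of the means was 0.41 for Dbp to Arntl and 0.20 without Ntsr2 AKO 5, and it was -0.45 for Nr1d1 to Arntl and -0.17 without control 4. The limit on the Dbp reads, which share bases with Sphk2, holds for its ratio too.

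The other pairs showed no separation of the genotypes. The log2 ratio of Per3 to Npas2 was 0.93, -0.68 and -0.04 in control mice and 0.15, -0.56 and 0.00 in Ntsr2 AKO mice. It spanned 1.62 between the most distant mice, controls 3 and 4, which are of the same genotype. The log2 ratio of Per2 to Cry1 was 0.37, 0.51 and -0.05 in control mice and 0.04, 1.02 and -0.45 in Ntsr2 AKO mice, and its extremes were both Ntsr2 AKO mice. The differences of the group means were -0.21 and -0.07, and neither kept its sign when single mice were left out, with Per3 to Npas2 at 0.23 without control 3 and Per2 to Cry1 at 0.26 without Ntsr2 AKO 5. These ratios are descriptions without a test, and a single sample of each mouse does not give a rhythm.

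**Figure D5:**
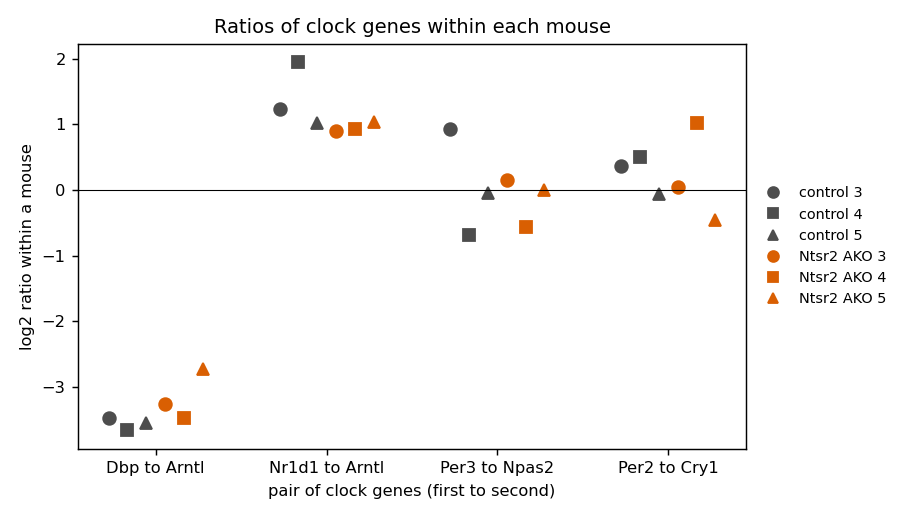
Log2 ratio of pairs of clock genes within each of the 3 control mice (grey) and 3 Ntsr2 AKO mice (orange). The groups overlap for all pairs but Dbp to Arntl, and there the gap is narrow. Its ratios end at -3.48 in control mice and start at -3.47 in Ntsr2 AKO mice, and Dbp shares exon bases with Sphk2.

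The genes whose levels over the 6 mice were most like those of Dbp and Arntl were taken from the 12565 other genes with a mean of at least 100 normalized counts, by Pearson correlation of the log2 values as a description. The 6 mice are of 2 genotypes and also differ in depth and in muscle transcripts, so these points share more than the level of a gene. The extremes among 12565 genes over only 6 mice can also come near 1 or -1 by chance. Whether the genes named are related to Dbp or Arntl was not tested. The highest correlations with Dbp were those of Il17rd (0.99), Pde10a (0.99), Esrra (0.98), Ptger3 (0.97) and Gm17024 (0.97). Esrra, which encodes an estrogen-related receptor of oxidative metabolism, had 2351, 1912 and 2348 normalized counts in control and 2210, 1963 and 2720 in Ntsr2 AKO mice, so that Ntsr2 AKO 5 was highest as for Dbp. The lowest correlations with Dbp were those of Amigo3 (-0.97), Gm20425 (-0.96), Aim1 (-0.96), Zfp207 (-0.96) and Swt1 (-0.96). Per3 had a correlation of 0.59 with Dbp, Arntl 0.43, Nr1d1 -0.30 and Per1 -0.79.

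Arntl was most like Rnd1 (0.99), Lrrk2 (0.99), Cyb5d1 (0.99), Auts2 (0.99) and Plekhm1 (0.99). The lowest correlations were those of Spata2l (-0.99), Odf3l1 (-0.99), Acadl (-0.99), Ndufaf7 (-0.99) and Cdc123 (-0.99). Among the clock genes Cry1 was closest to Arntl, with a correlation of 0.94 and rank 77, and Npas2 was the most distant, with -0.69. With Nr1d1, the repressor of Arntl, the correlation was 0.36.

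Among 19 other factors of the clock, 0 passed the adjusted p of 0.05 in limma, edgeR or DESeq2, 3 were lower and 1 higher at an unadjusted p under 0.05 in limma, and the median log2 difference was -0.19. Over all 16157 genes 852 were lower and 497 higher at that p, and the median was -0.01. Cry2, the second cryptochrome, had 1782, 999 and 1792 normalized counts in control and 1525, 1841 and 1418 in Ntsr2 AKO mice (log2 difference 0.11, limma adjusted p = 0.923). Ciart, a repressor of the CLOCK-ARNTL pair, had 52.5, 41.3 and 40.3 in control and 53.7, 29.0 and 32.4 in Ntsr2 AKO mice (log2 difference -0.26, limma adjusted p = 0.879). Both overlapped between the groups. Nfil3, the D-box repressor that opposes DBP, had 2824, 1819 and 3281 normalized counts in control and 1688, 1339 and 1621 in Ntsr2 AKO mice. Its groups did not overlap, with a log2 difference of -0.73 (standard error 0.23, limma adjusted p = 0.544). Fbxw11, which encodes a ubiquitin ligase subunit that targets PER proteins, had a log2 difference of -0.40 (standard error 0.13, limma adjusted p = 0.557) and also did not overlap. Timeless, the third factor lower at an unadjusted p under 0.05 and named after its values were seen, had a log2 difference of -0.46. Rorb, which encodes an activator at RORE elements, had 17.5 to 26.9 normalized counts in control and 39.4 to 106 in Ntsr2 AKO mice (log2 difference 1.34, limma adjusted p = 0.565).

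Among 6 outputs of the clock 0 passed in limma or edgeR and 1, Tspan4, passed in DESeq2, against 1.36% of all genes. Tspan4, which encodes a tetraspanin, had 4398, 3396 and 3852 normalized counts in control and 2786, 2425 and 2388 in Ntsr2 AKO mice. The groups did not overlap, with a log2 difference of -0.61 (standard error 0.14) and an adjusted p of 0.520 in limma and 0.0209 in DESeq2. Wee1, a kinase gene of the cell cycle, was likewise without overlap, at 200 to 291 and 137 to 197 normalized counts (log2 difference -0.43, limma adjusted p = 0.684). These 2 of 6 genes compare with 8.16% of all genes that were lower without overlap. Tsc22d3, also a target of glucocorticoids, was lowest in Ntsr2 AKO 5 at 4990 normalized counts, and its log2 difference was -0.75 (limma adjusted p = 0.643).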

How the data were processed

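Values of 21456 genes in 6 mice were used. The values that the authors deposited are a signal, the read count of a gene divided by a size factor for each mouse. HISAT2, StringTie and the mm10 build are named in the submitters' processing notes, and the annotation, the versions and the strand setting are not given in the sources used here. Division by the step of low values gave whole reads for 100% of values (tolerance 0.001 reads). The depth leaves little counting error for the clock genes other than Dbp, so the number of mice limits their precision. Dbp, at 107 to 216 normalized counts, has more counting error.

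Genes with a mean of at least 10 were tested with limma 3.58.1 (mean-variance trend, R 4.3.3) on log2(normalized count + 1), without covariates, with Benjamini-Hochberg adjustment over 16157 genes and a threshold of 0.05. edgeR 4.0.16 (quasi-likelihood test, TMM) and DESeq2 1.42.0 served as alternatives on these reads, and the procedures were tested on simulated data. Other alternatives were pseudocounts, filters, quantile normalization, no trend, the replicate number as a block, a skeletal muscle covariate and the omission of mice.

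The clock genes and all lists were chosen with earlier results of these data known. Named genes are the 10 clock genes, Cry2, Ciart, Ntsr2, in each other list the genes with an adjusted p under 0.05 or otherwise the 3 with the smallest p, and the 5 genes most and least like Dbp and Arntl. Ciart and Cipc were matched by the older symbols Gm129 and 2310044G17Rik. Gene positions and exon lengths are from GENCODE release M21 on GRCm38, and promoter windows are from RefSeq on GRCm38.p6.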

Additional observations from a re-analysis of the deposited data

How the results depend on the processing

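The log2 differences of the 10 clock genes kept their direction and their side of the threshold in 161 of 170 alternative values, reversed in 8 and passed the threshold in 1. The latter was Nr1d1 in DESeq2, at -0.70. The reversed values were Clock at 0.0065 after quantile normalization, 0.00027 without Ntsr2 AKO 5 and 0.030 without the 3 mice with skeletal muscle transcripts, Per1 at 0.046 and 0.0096 in the last 2 settings, Per3 at -0.14 and Dbp at -0.049 without control 4, and Dbp at -0.042 without Ntsr2 AKO 5. With each mouse left out in turn Clock ranged from -0.14 to 0.00027, Per1 from -0.61 to 0.046, Per3 from -0.14 to 0.44 and Dbp from -0.049 to 0.37. The cause was not tested. The number of genes called in limma, 1 of 16157, became 0 with no filter, without the trend, with the replicate block, in edgeR, with the muscle covariate and without the 3 mice with muscle transcripts, and 0 to 0 with each mouse left out, and that of immediate early genes, 1 of 12, became 0 in the same settings. DESeq2 called 219 genes (153 lower and 66 higher), of which 1 was a clock gene, 1 a clock output, 2 glucocorticoid targets and 5 immediate early genes, and gave no adjusted p for 280 genes. Of the 102 alternative counts 73 kept within 1.5 times of the count reported. These include counts of 0 that stayed 0, as for the clock genes in every setting but DESeq2, so they say little about stability. The differences of the log2 ratios moved by less than the wide spread between mice. With each mouse left out they ranged from 0.20 to 0.57 for Dbp to Arntl, from -0.63 to -0.17 for Nr1d1 to Arntl, from -0.58 to 0.23 for Per3 to Npas2 and from -0.48 to 0.26 for Per2 to Cry1, so the last 2 changed sign. The mice share the numbers 3, 4 and 5. Deviations of same-numbered mice had correlations of 0.45, -0.24 and 0.41, and those of differently numbered mice ranged from -0.52 to 0.26. These values do not settle whether the numbers mark pairs. The block, under which 0 genes and 0 clock genes were called, was kept as an alternative. The fit without the mice with muscle transcripts (Ckm above 1000 normalized counts), chosen after seeing the data, leaves 1 Ntsr2 AKO mouse, which is assumed to vary like the control mice. With 3 mice a group, sampled once, small differences and rhythms could not be detected.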

Other observations

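Among 10 glucocorticoid targets, all had a log2 difference below 0 in Ntsr2 AKO mice, with a median of -0.54, where 51.0% of all genes were below 0. In this list 0 passed the adjusted p of 0.05 in limma or edgeR, 4 had an unadjusted p under 0.05 in limma (8.35% of all genes) and 2 passed in DESeq2 (1.36% of all genes). The smallest p values were those of the metallothionein genes Mt1 and Mt2, which bind metals, and of Nfkbia, an inhibitor of NF-κB. Mt1 had 37027, 39825 and 72584 normalized counts in control and 16240, 10992 and 9141 in Ntsr2 AKO mice (log2 difference -2.01, standard error 0.32, limma adjusted p = 0.457). Mt2 had 38574, 39805 and 86277 in control and 15831, 4952 and 4419 in Ntsr2 AKO mice (log2 difference -2.86, standard error 0.55, limma adjusted p = 0.499). Nfkbia had 5135, 4919 and 4687 in control and 4069, 3702 and 2399 in Ntsr2 AKO mice (log2 difference -0.57, standard error 0.20, limma adjusted p = 0.565). The groups did not overlap for these 3 genes, and Ntsr2 AKO 5 was the lowest mouse for each.

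All 12 immediate early genes had a log2 difference below 0, with a median of -1.29, and 8 had an unadjusted p under 0.05, where 51.0% and 8.35% of all genes did. Of these Egr1, a zinc finger transcription factor gene, fell in Ntsr2 AKO mice, from 2411, 2020 and 2627 normalized counts in control to 513, 407 and 507 (log2 difference -2.30, standard error 0.16, limma adjusted p = 0.0442). It was the only gene of the whole table past the threshold in limma, and 0 immediate early genes passed in edgeR and 5 in DESeq2, against 0 and 1.36% of all genes. With any 1 mouse left out, Egr1 no longer passed in limma.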
